A study of Rattus norvegicus with 32 samples.

Results

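The scaffold plus minced graft group at 3 days post injury (DSM+MM3) was compared with uninjured muscle of the same day (Normal3) across 10851 of the 18281 RefSeq transcripts of the authors' deposited table, those averaging at least 0 log2 CPM (read counts scaled to library size). All samples are tibialis anterior of the rat strain labelled HSD, Sprague Dawley in the methods of the study. In DSM+MM3 a biopsy 8 mm wide and 3 mm deep was taken from the middle of the muscle, and the defect, a model of volumetric muscle loss (VML), was filled with the rat's own minced muscle (MM) together with decellularized skeletal muscle (DSM) from the tibialis anterior of donor rats. Normal3 is uninjured muscle of the opposite limb, so a Normal3 and a DSM+MM3 library may come from the same rat, while the tests treat them as independent. All rats received buprenorphine and had access to Rimadyl, and force was measured before tissue was taken. The labels give 3 DSM+MM3 and 4 Normal3 libraries of 32 in the series, whereas the methods of the study give 3 per group, and neither gives the age of the rats. Beside them stand the unrepaired defect (VML3) and the minced graft alone (MM3) at day 3 against Normal3, and the scaffold plus graft at day 14 (DSM+MM14) against the uninjured muscle of day 14, each with 3 injured libraries.

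Injured muscle is cleared by neutrophils and then by macrophages, which engulf debris and later release factors that guide repair. Resident fibro-adipogenic progenitors lay down a provisional matrix, while satellite cells, the stem cells of muscle, divide, switch on Myog and fuse into new fibres. When a whole volume of muscle is lost the basal lamina that guides these cells is lost with it, and a scaffold and a graft are meant to replace matrix and cells respectively.

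The deposited values are comparisons of groups, so no value of a single library is given here and total counts per library are unknown. Each transcript has a log2 fold change, for which a standard error (SE) was derived from its F statistic, and the median SE was 0.29 on the log2 scale (5th to 95th percentile 0.14 to 0.79). The p-values measure a spread between libraries, and the labels do not show whether each library of a group is a different rat. That spread is not of the DSM+MM3 and Normal3 libraries alone. The degrees of freedom of the tests, given with the processing below, are more than these libraries could supply by themselves. The p-values and SE thus also rest on information from beyond these libraries. The parts from other groups and from other transcripts cannot be separated here. The tissue was punched across the border of the defect, and in such a mixed sample more cells of a type and more RNA per cell cannot be told apart. The muscle genes Acta1 (average log2 CPM 16.02), Myh4 (15.13) and Ckm (14.75) were among the most abundant transcripts. These averages are the same in every comparison used, so they do not check the label of a single group. Genes split over several RefSeq transcripts were poorly covered: 70.6% of 759 transcripts from genes with 3 or more of them stood at the lowest average of the table, -2.66, against 14.7% of 15846 from genes with 1, and all 13 transcripts of Tnnt3 and all 12 of Tpm1 did so. Genes with every transcript at that average are not described.

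DSM+MM3 muscle differed from uninjured muscle mainly by rises. By edgeR's quasi-likelihood test, at a Benjamini-Hochberg adjusted p under 0.05 and a fold change of at least 1.5 in either direction, 2595 transcripts rose (23.9% of those tested) and 868 fell (8.00%). Rises were the larger, with a median log2 fold change of 2.08 against -0.92 for falls, and 420 rises exceeded 4 while 9 falls went below -2. Values ran from -2.76 to 10.76. Direction went with abundance: of 83 transcripts averaging 10 log2 CPM or more, 77 lay below 0 (median -0.95), and 5 of these 83 rose and 3 fell, whereas among 4799 averaging 2 to 5 the median was 0.15 and 1392 rose. The 83 abundant transcripts also had a larger median SE, 0.54. Over the 7685 transcripts averaging at least 3.3 the median was -0.16, and when this shift was set to 0 the counts became 3026 higher and 339 lower.

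**Figure D1:**
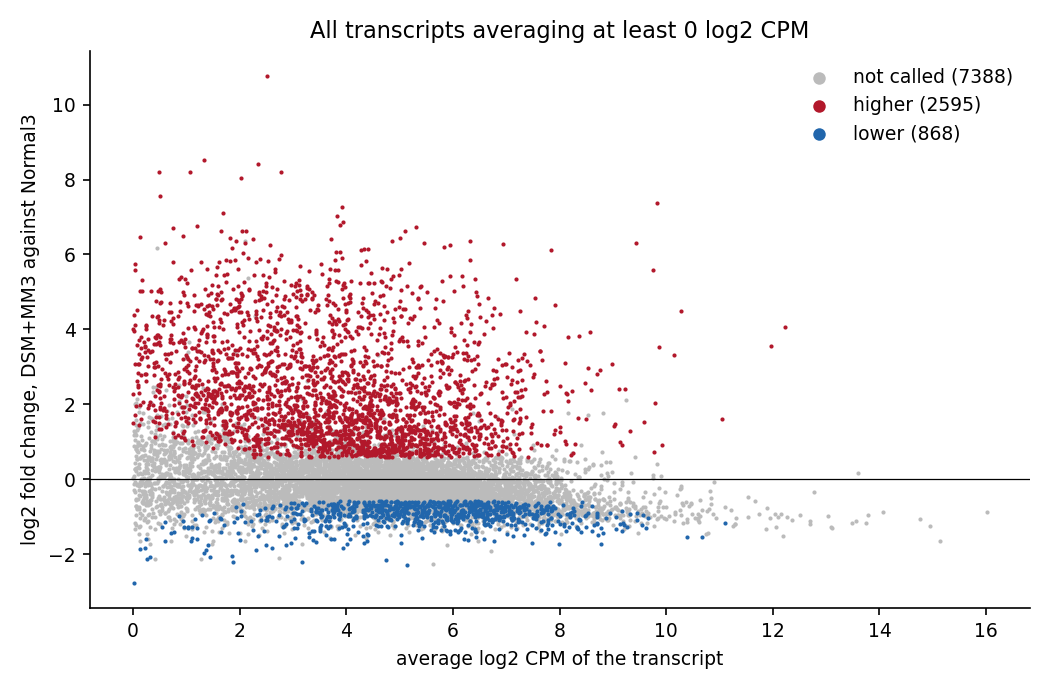
Each point is 1 of the 10851 transcripts, with its average log2 CPM on the horizontal axis and its log2 fold change in DSM+MM3 against Normal3 on the vertical axis. The 2595 higher calls reach 10.76, the 868 lower calls reach -2.76, and most transcripts averaging 10 or more lie below 0.

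Genes of phagocytes led the rises. Among called transcripts averaging at least 2 log2 CPM, the 15 largest were Fcgr3a (log2 fold change 10.76), Cd5l (8.43), Zbp1 (8.05), Spp1 (7.36), Arg1 (7.27), Mmp9 (7.04), Il1rl1 (6.86), Msr1 (6.79), Siglec1 (6.72), Steap1 (6.64), Trem1 (6.63), Il1rn (6.63), Mmp12 (6.43), Slamf6 (6.42) and Hk3 (6.40). Fcgr3a is a receptor for antibody, Cd5l a macrophage secreted protein, Msr1 a scavenger receptor, Siglec1 a sialic acid receptor of macrophages and Arg1 arginase. Intervals were wide for the largest of them, with an SE of 2.05 for Fcgr3a (adjusted p = 0.000574) and 2.39 for Cd5l (0.0151), and reads of near-identical Fc receptor genes may be split uncertainly. A fitted fold change of a gene that is rare in uninjured muscle depends on the prior count of the fit and is no bound. The 95% intervals were narrower for Msr1 (4.70 to 8.88, adjusted p = 0.000105) and Trem1 (4.70 to 8.56, 0.000105). The smallest adjusted p, 5.43e-05, was shared by the clotting factor subunit F13a1 (6.19, SE 0.72), heme oxygenase Hmox1 (6.13, SE 0.74), the membrane protease St14 (5.23, SE 0.64) and Fam83d (4.53, SE 0.56).

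The 15 largest falls were smaller and belonged to varied functions. They were Mss51 (-2.30), Mstn (-2.22), Arrdc2 (-2.16), Adcy1 (-1.90), Ovol1 (-1.84), Spag1 (-1.83), Il12rb2 (-1.77), Kcna5 (-1.77), Gpcpd1 (-1.75), Ppp1r3a (-1.74), Iqub (-1.73), Il15 (-1.71), Ros1 (-1.70), P2rx6 (-1.70) and Pcmtd1 (-1.70). Mstn, myostatin, restrains muscle growth and had an adjusted p = 0.027 (SE 0.72). Mss51 is a mitochondrial protein of fast muscle (SE 0.67, adjusted p = 0.0142), and Ppp1r3a brings a phosphatase to glycogen (SE 0.51, 0.0156). Il15 is a cytokine made by muscle fibres, with SE 0.52 and an adjusted p = 0.018.

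**Figure D2:**
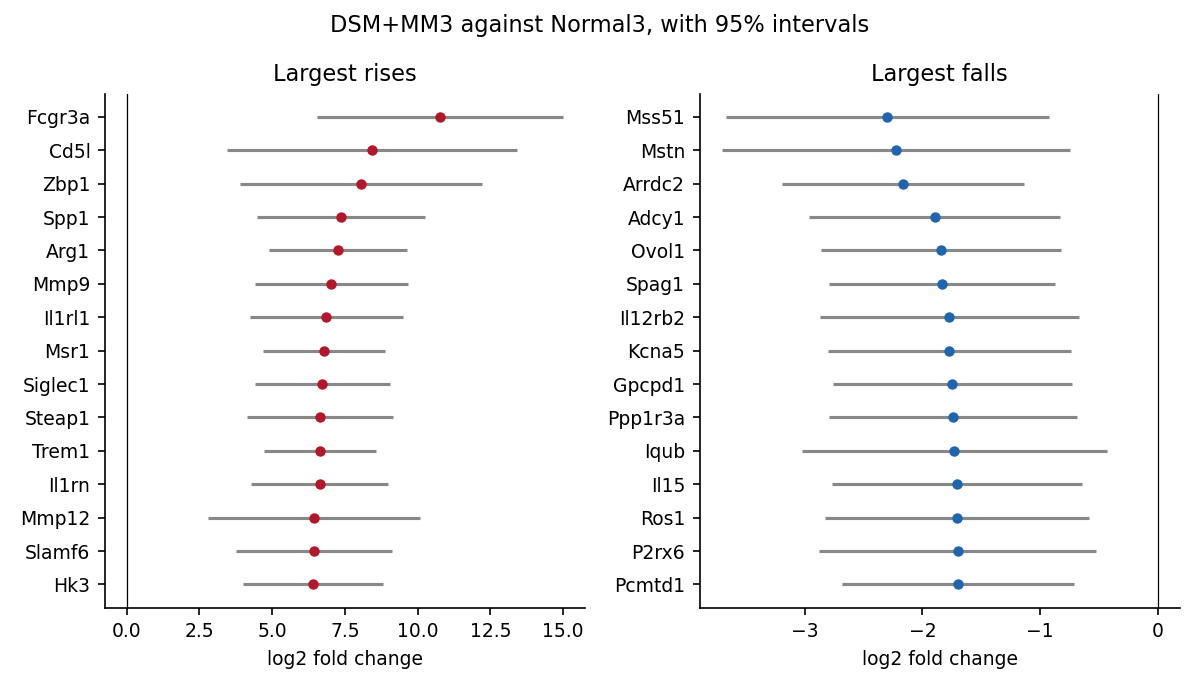
Points are log2 fold changes of DSM+MM3 against Normal3 for the 15 largest rises (left) and falls (right), and lines are 95% intervals derived from the F statistics. Fcgr3a, Cd5l and Zbp1 have the widest intervals. No interval reaches 0, which follows from showing called transcripts only.

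All 16 measured macrophage markers rose, with a median log2 fold change of 5.13 against -0.03 over all 10851 transcripts. All 16 also rose in VML3 (median 4.73), MM3 (5.08) and DSM+MM14 (4.85). The lysosomal marker Cd68 stood 78.0-fold higher (log2 6.29, SE 0.99, adjusted p = 0.000112), the scavenger receptor Msr1 at 6.79, lysozyme Lyz2 at 5.58, the growth factor receptor Csf1r at 4.83 and the phagocytosis kinase Mertk at 2.77. Of 14 genes linked to repair-type macrophages 13 rose, among them Spp1, Arg1, the interleukin-1 antagonist Il1rn, the hemoglobin receptor Cd163 (4.16) and the mannose receptor Mrc1 (4.83), while the tetraspanin Cd9 stood at 1.00 (adjusted p = 0.075). Il10, averaging -1.09 log2 CPM and so below the floor, stood at 3.48 (0.0473), and its receptor subunit Il10ra rose by 4.78. Receptors that signal through Fc and related adaptors rose in 15 of 15 cases (median 5.10), including Fcer1g (5.34) and Tyrobp (5.01), which pass the signal on. The 5 measured subunits of the phagocyte oxidase rose, from Ncf1 (1.33) to the catalytic subunit Cybb (6.25).

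Promoters of macrophage genes were searched for GAGGAA on either strand, the core bound by PU.1 (Spi1, itself at 4.20), which drives macrophage genes in mouse and human. Of 13 macrophage markers with a promoter in the RefSeq table (build GRCr8), 10 held it in the 250 bases before the start, or 76.9%, against 23.3% of all 33469 promoters. A match is a description and not a bound site. The last 120 bases before the start are shown for Cd68 (chr10:54882442-54882561 on the minus strand) and the integrin subunit Itgam (chr1:192089472-192089591 on the plus strand, log2 fold change 6.31), with the core in capitals, here on the opposite strand.
Cd68: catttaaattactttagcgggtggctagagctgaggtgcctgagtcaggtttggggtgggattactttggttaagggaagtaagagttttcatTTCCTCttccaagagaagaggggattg
Itgam: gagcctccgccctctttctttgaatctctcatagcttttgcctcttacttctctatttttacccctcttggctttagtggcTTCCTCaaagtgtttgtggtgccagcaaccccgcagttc

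Complement genes rose in 18 of 20 cases (median 3.12). In VML3 16 of the 20 rose, in MM3 18 and in DSM+MM14 17. The subunits of C1q, which binds immune complexes and debris, stood at 4.33 (C1qa), 4.16 (C1qb) and 3.73 (C1qc), the alternative pathway factor Cfb at 2.65 and the receptors C3ar1 and C5ar1 at 5.91 and 5.13. The fall was Cd55 (-1.01, SE 0.36, adjusted p = 0.0427), which shields cells from complement, and it was lost when the median shift was set to 0. C4a (3.11) and C4b (2.81) are near-identical in sequence, so the split of reads between them is uncertain. Of 15 genes of toll-like receptor signalling 13 rose, led by Tlr8 (6.13) and Tlr2 (5.65), and Tlr3 (-0.48) and the inhibitor Nfkbia (0.11) did not pass. The number that rose was 13 in VML3, 13 in MM3 and 12 in DSM+MM14.

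Neutrophil markers had a median of 2.20. Of 9 measured, 4 rose, among them the decoy receptor Il1r2 (5.62, SE 0.93, adjusted p = 0.000137), the receptor of granulocyte growth factor Csf3r (3.95) and haptoglobin Hp (1.43). The defining markers S100a8 (1.02, SE 0.87, adjusted p = 0.477) and S100a9 (0.73, SE 0.91, 0.697) did not pass, nor did Cxcr2 (2.32, SE 1.00, 0.099). Below the floor, the granule protein genes Camp (5.71, adjusted p = 0.000713) and Elane (5.88, 0.0119) were higher. Also below it, Cxcr1 (4.13, 0.0988), Fpr1 (2.48, 0.41), Retnlg (1.75, 0.231) and the granule protein gene Ltf (-0.26) did not pass.

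Inflammatory cytokines rose in 11 of 14 cases (median 3.67). Interleukin-6 (Il6) stood at 4.06 (SE 0.97), Il1b at 3.34 (SE 0.88), oncostatin M (Osm) at 4.48, the macrophage growth factor Csf1 at 2.98 and inducible nitric oxide synthase Nos2 at 3.98 (SE 0.75, adjusted p = 0.000411). The 1 fall was Il15 (-1.71). Il1a had 8.20 with an SE of 2.11 at an average of 0.48 log2 CPM. Among 25 chemokines 17 rose (median 3.88), with Ccl12 at 6.02, Ccl7 at 5.29, the monocyte attractant Ccl2 at 4.36 and the neutrophil attractant Cxcl2 at 4.47 (SE 1.01, adjusted p = 0.00214). Cxcl12, which holds cells in place in resting tissue, stood at -0.38 (adjusted p = 0.278), and 6 of 8 chemokine receptors rose, led by Ccr1 (6.35).

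Several of these genes had lower values in VML3, MM3 or DSM+MM14. The scaffold alone at day 3 was not compared, because no header of the deposited values names that group and day. The gaps below are thus not shown to be particular to the scaffold plus graft. VML3 had 2282 transcripts higher (21%) and 365 lower (3.36%), MM3 3052 higher (28.1%) and 2532 lower (23.3%), and DSM+MM14 2363 higher (21.8%) and 225 lower (2.07%). Nos2 stood at 0.42 in VML3, 1.69 in MM3 and 0.71 in DSM+MM14, none of which passed, and Cxcl2 at -0.09, 0.46 and 1.09. The difference of DSM+MM3 from VML3 was 3.56 for Nos2 (SE 0.81, unadjusted p = 0.000166), 4.45 for Il1r2 (SE 1.03, 0.000193) and 4.55 for Cxcl2 (SE 1.08, 0.000255). Each had an adjusted p = 0.687, so none was called. Il1b stood at 0.20 in VML3, 0.91 in MM3 and 3.42 in DSM+MM14, and Mmp9 at 3.23, 3.46 and 9.88. Of the 14 cytokines 4 rose in VML3, 8 in MM3 and 6 in DSM+MM14, and the difference from DSM+MM3 had an unadjusted p under 0.05 for 2, 2 and 1 of them.

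**Figure D3:**
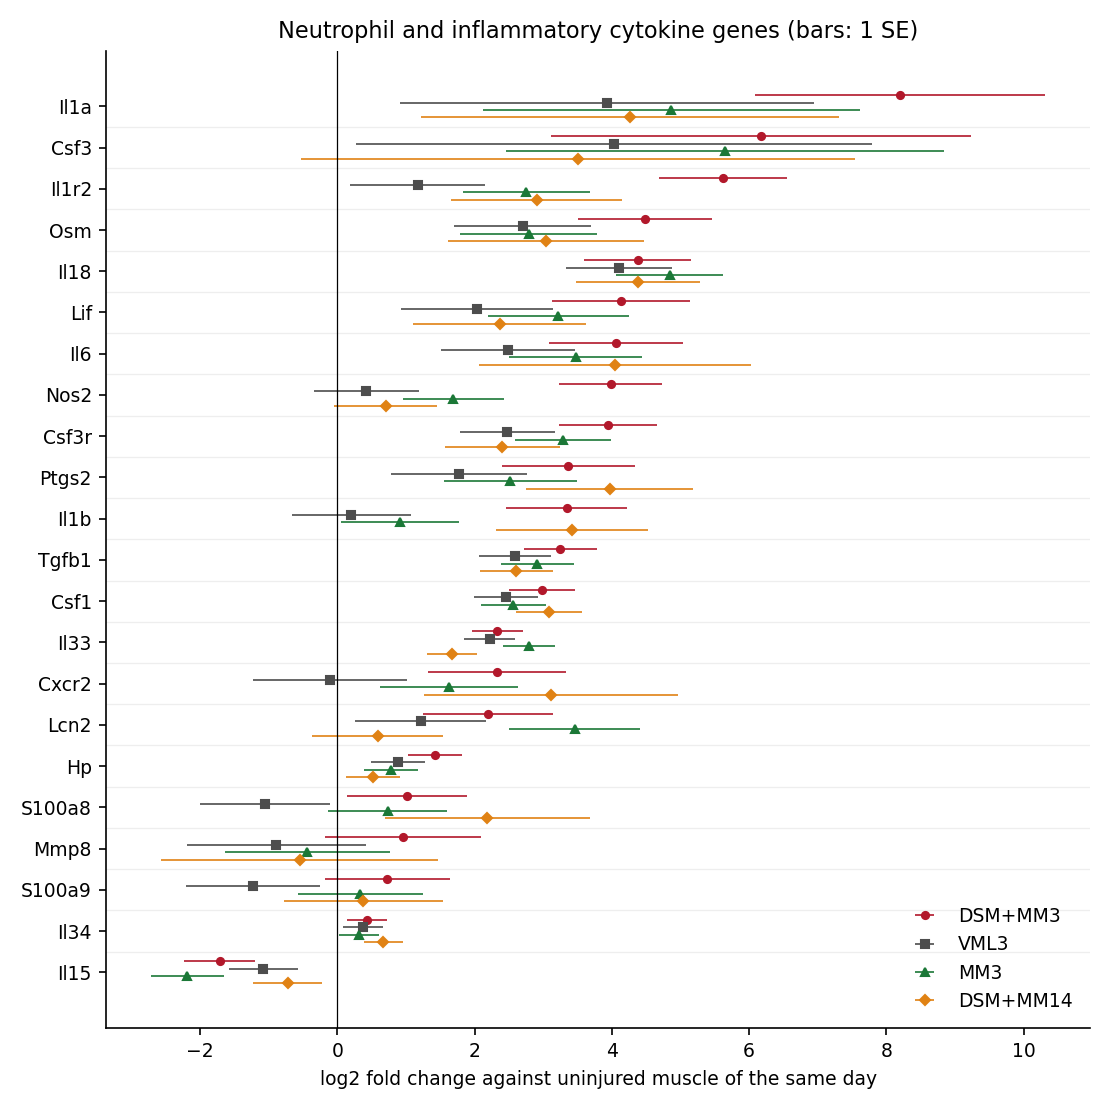
Log2 fold changes against uninjured muscle of the same day for neutrophil and inflammatory cytokine genes in DSM+MM3, VML3, MM3 and DSM+MM14, with bars of 1 SE. The 3 comparisons of day 3 share the Normal3 libraries. For Nos2 and Il1r2 the bar of DSM+MM3 (3.98 and 5.62) stands clear of the other 3, and for Il18 and Csf1 the bars of the 4 groups overlap.

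Interferon-induced genes rose in 13 of 18 cases, with a median of 2.13. The ubiquitin-like Isg15 stood at 4.02 (SE 1.11, adjusted p = 0.0104), Oasl at 3.80, Mx2 at 3.34, the transcription factor Irf7 at 3.05 (SE 1.02, 0.0319), Ifit3 at 3.02 and Gbp2 at 2.99. The signal carrier Stat2 rose by 1.58. In VML3 1 of the 18 rose (median 0.88), in MM3 14 (2.14) and in DSM+MM14 3 (1.37). The difference from VML3 had an unadjusted p under 0.05 for Ifit3 (2.19, SE 0.98) and Oasl, and none passed after adjustment. At an adjusted p under 0.01, 4 of the 18 were called.

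The letters GAAANNGAAA, the core of the element through which interferon acts on its target genes, were found on either strand in 9 of 13 promoters of this list (69.2%) against 3.41% of all 33469. They are shown in capitals, on the opposite strand, in the last 120 bases before the start of Ifit3 (chr1:241527206-241527325 on the plus strand), Gbp2 (chr2:234005607-234005726 on the plus strand) and Irf7 (chr1:205800024-205800143 on the minus strand), genes that rose together here.
Ifit3: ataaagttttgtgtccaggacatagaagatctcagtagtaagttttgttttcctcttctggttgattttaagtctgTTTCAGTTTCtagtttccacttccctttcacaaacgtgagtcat
Gbp2: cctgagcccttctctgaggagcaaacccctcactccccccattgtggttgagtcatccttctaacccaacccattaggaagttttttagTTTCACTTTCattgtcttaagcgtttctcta
Irf7: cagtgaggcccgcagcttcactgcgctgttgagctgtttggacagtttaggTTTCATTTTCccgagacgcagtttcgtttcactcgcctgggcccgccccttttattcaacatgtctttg

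Genes of antigen presentation by class II molecules rose in 7 of 9 cases (median 3.08), with RT1-Da at 3.34, the invariant chain Cd74 at 3.08 and the costimulators Cd86 and Cd80 at 3.89 and 1.82. Of 20 listed T and NK cell genes only 7 reached the floor. Of these 6 rose, with Cd8b at 5.84, Cd4 at 4.82 and Cd2 at 4.63, although rat macrophages also carry CD4. The defining T cell chains averaged below the floor, Cd3e with 3.3 (adjusted p = 0.0442), Cd3g with 2.57 (0.0367) and Cd3d with 1.98 (0.205). Also below it, Zap70 (2.61, 0.0332) and Ncr1 (2.49, 0.0339) were higher. The cytotoxic cell genes Gzma (1.41, 0.549), Gzmb (2.62, 0.39), Prf1 (0.79, 0.582), Klrd1 (0.99, 0.458) and Nkg7 (2.87, 0.0503) did not pass. Neither did Cd5 (2.31, 0.0605), Ctla4 (4.27, 0.0696) and Cd247 (-2.74, 0.241). Foxp3 of regulatory T cells stood at -0.97 (SE 0.49, 0.167). Of the B cell genes only Blnk, which myeloid cells also use, was above the floor (5.36). None of 4 mast cell genes passed, Cma1 and Cpa3 having 1.07 and 0.85.

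Cell division genes rose in 24 of 27 cases, with a median of 3.95. Cdk1, the kinase that starts mitosis, stood 34.5-fold higher (log2 5.11, SE 0.71, adjusted p = 0.000105), its partners Ccnb1 and Ccnb2 at 4.87 and 5.07, the spindle checkpoint kinase Bub1b at 5.38 and Mki67, which marks dividing cells, at 4.28. Genes of DNA replication rose by less in part, with Mcm3 at 4.47 but Mcm2 at 1.49 and Pcna at 1.04, and Mcm7 (-0.05), Tpx2 (0.04) and Ccne2 (0.38) did not pass. In VML3 24 of the 27 also rose (median 3.51), in MM3 24 (3.63) and in DSM+MM14 17 (2.28).

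Mitotic genes are known in human and mouse cells for promoters with CCAAT boxes and a cell cycle homology region, TTTGAA. Among 19 cell cycle promoters in the table, 14 held CCAAT on either strand in 250 bases (73.7%) against 34.0% of all, and 6 held TTTGAA (31.6%) against 16.2%. The stretches of 120 bases before Cdk1 (chr20:19265173-19265292 on the plus strand), Ccnb2 (chr8:79981659-79981778 on the minus strand) and Cdc20 (chr5:137255800-137255919 on the minus strand, log2 fold change 3.95) held both, shown in capitals, with no overlap between them. In Cdk1 the TTTGAA lies at -72 and -16 and CCAAT, read on the opposite strand, at -81 and -49 from the start.
Cdk1: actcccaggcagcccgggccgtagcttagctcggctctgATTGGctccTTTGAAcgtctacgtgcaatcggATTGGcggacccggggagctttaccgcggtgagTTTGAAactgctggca
Ccnb2: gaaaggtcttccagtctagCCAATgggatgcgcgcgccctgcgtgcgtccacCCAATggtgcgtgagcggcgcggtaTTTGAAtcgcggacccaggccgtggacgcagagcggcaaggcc
Cdc20: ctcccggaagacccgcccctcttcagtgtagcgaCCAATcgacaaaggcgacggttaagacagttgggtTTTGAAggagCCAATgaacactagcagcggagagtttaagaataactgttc

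Matrix genes rose broadly. Of 6 fibrillar collagen genes above the floor 4 rose, Col1a1 16.8-fold (log2 4.07, SE 0.92, adjusted p = 0.00209), Col5a1 by 3.78, Col3a1 by 3.57 and Col5a3 by 3.05, while Col11a1 (1.20) and Col11a2 (-0.56) did not pass. Col1a2, the partner of Col1a1 in type I collagen, averaged -1.43 log2 CPM, below the floor, with 4.77 (0.0216). Genes of provisional matrix rose in 14 of 20 cases (median 3.56): fibronectin Fn1 (4.48), tenascin Tnc (4.56), the hyaluronan synthase Has2 (4.97), its receptor Cd44 (3.87) and thrombospondin Thbs1 (3.66). Postn (2.10, SE 1.09, adjusted p = 0.173) and the mechanically driven Ccn1 (-0.43) and Ccn2 (0.28) did not pass. Of 16 collagen-processing genes 14 rose, led by the prolyl hydroxylase P4ha3 (4.94) and the crosslinking enzymes Loxl2 (3.70) and Loxl1 (3.38), and basement membrane genes rose by less, in 7 of 9 cases (median 1.14), with Col4a1 at 1.28 and Lamc1 at 0.65.

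Matrix-degrading enzymes and their inhibitors moved unequally. Of 15 measured 7 rose, with Mmp9 at 7.04 (SE 1.27), Mmp12 at 6.43, Mmp19 at 5.60 and the inhibitor Timp1 at 4.50, while Timp3, an inhibitor bound to matrix, fell by 0.95 (SE 0.28, adjusted p = 0.0152). The collagenase Mmp13 stood at 1.80 (SE 1.90) and Mmp3 at 3.25 (SE 1.83), neither called. In DSM+MM14 11 of the 15 rose and none fell, with Mmp13 at 10.55, and the difference of the days was -1.70 for Timp3 (SE 0.39, unadjusted p = 0.000177, adjusted p = 0.314).

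Stromal cells of muscle were represented by 15 markers of fibro-adipogenic progenitors, 11 of which rose (median 1.70). Thy1 stood at 4.57, vimentin (Vim) at 3.52 and the defining receptor Pdgfra at 3.22 (SE 0.57, adjusted p = 0.000242). In TGF-beta and BMP signalling 8 of 22 measured genes rose and 3 fell, beside 23.9% and 8.00% of all transcripts. Among the rises were the ligand Tgfb1 (3.25), the activin subunit Inhba (3.10) and follistatin (Fst, 2.51), an inhibitor of activin and myostatin. The falls were Mstn, its receptor Acvr2b (-1.15) and the inhibitor Smad7 (-0.60). With the median shift set to 0, Mstn was the 1 fall of these 3 still called.

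Vessel genes had medians near 0, and over all transcripts 23.9% rose and 8.00% fell. Of 17 endothelial markers 2 rose, Plvap (1.72) of leaky vessels and Eng (0.87), and the Notch ligand Dll4 fell (-0.79, SE 0.27, adjusted p = 0.036), while Pecam1 (0.32) and Cdh5 (-0.05) did not pass and the median was -0.06. Angiogenic ligands moved both ways, 6 of 16 higher and 2 lower: Vegfd (4.32), Angptl4 (4.03), Hgf (3.65), which also wakes satellite cells, Adm, Vegfc and Pgf rose, and Angpt1 (-1.27), which stabilizes vessels, and Fgf2 (-1.64, SE 0.52, 0.024) fell. Among 14 transcripts of Vegfa the highest average was -2.05 log2 CPM, below the floor, at a log2 fold change of -2.01 (adjusted p = 0.136). Of 12 pericyte and smooth muscle genes 2 rose, Acta2 (1.44) and Tagln (0.98), and Abcc9 fell (-1.05). The falls of Dll4, Angpt1 and Abcc9 were not called with the median shift set to 0.

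Of 17 myogenic regulators 2 rose and 2 fell, beside 23.9% and 8.00% of all transcripts. The counts of this list became 5 and 1 with the median shift set to 0. Myog, which drives differentiation, rose by 2.08 (SE 0.53, adjusted p = 0.00551) and the adhesion molecule Vcam1 by 1.62, and among the falls was Myf6 (-0.79), which acts in mature fibres and was not called after that shift. Pax7, the marker of satellite cells, stood at 0.40 (SE 0.33, 0.454), Myf5 at 0.67 (SE 0.38, 0.22) and Myod1 at -0.08 (SE 0.34, adjusted p = 1). In VML3 6 of the 17 rose and in MM3 7.

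Beside 23.9% of all transcripts, genes of new or denervated fibres rose in 5 of 16 cases (median 1.61). They were the fetal acetylcholine receptor subunit Chrng (3.28, SE 0.94, adjusted p = 0.0133), the embryonic troponin Tnnt2 (3.27, SE 0.77, 0.00298), the junction kinase Musk (2.33), the atrial light chain Myl4 (2.30) and the adhesion molecule Ncam1 (2.28). The receptor subunits Chrna1 (1.65, SE 0.69, 0.0877) and Chrnd (1.56, SE 0.61, 0.0695) and cardiac-type actin Actc1 (1.75, SE 0.67, 0.0598) did not pass, and embryonic myosin Myh3 stood at -0.27 (SE 0.44). In VML3 9 of the 16 rose (median 2.71) and in MM3 9 (2.98). At an adjusted p under 0.01, 1 of the 16 rose in DSM+MM3. Myh3 differed by -1.03 from VML3 (SE 0.46, unadjusted p = 0.0352) and by -0.97 from MM3 (SE 0.46, 0.0453), and Myog by -1.33 from MM3 (SE 0.57, 0.0284), with adjusted p of 0.842 or above for each.

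Chrng is shown because its rise is the largest of the new fibre genes and of the neuromuscular junction genes, a separate list described below. Its promoter (chr9:95325864-95325983 on the plus strand) held CAGCTG, an E-box of the kind that Myog and Myod1 bind in mouse, 26 bases before the start, as did 7 of 11 promoters of neuromuscular junction genes (63.6%) somewhere in 250 bases, against 12% of all. The letters read the same on both strands and are in capitals.
Chrng: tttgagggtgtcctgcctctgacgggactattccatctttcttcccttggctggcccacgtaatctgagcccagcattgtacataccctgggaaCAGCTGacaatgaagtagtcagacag

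Genes of the mature fibre lay below 0 with few calls. All 12 fast sarcomere genes were between -1.66 and -0.87 (median -1.09) and none passed, with Myh4, the myosin of the fastest fibres, at -1.66 (SE 0.72, adjusted p = 0.0991) and 4 of 12 at an unadjusted p under 0.05. The slow genes had a median of -0.91 over 10, none called. In the coupling of excitation to contraction all 15 genes lay below 0 (median -0.94) and Trdn, a scaffold of the calcium release unit, fell (-1.55, SE 0.57, adjusted p = 0.049), and in the dystrophin complex 2 of 16 fell, among them the sarcoglycan Sgcb (-1.21). None of these 3 falls was called with the median shift set to 0. The median SE of the fast sarcomere genes was 0.63, against 0.29 over all transcripts.

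**Figure D4:**
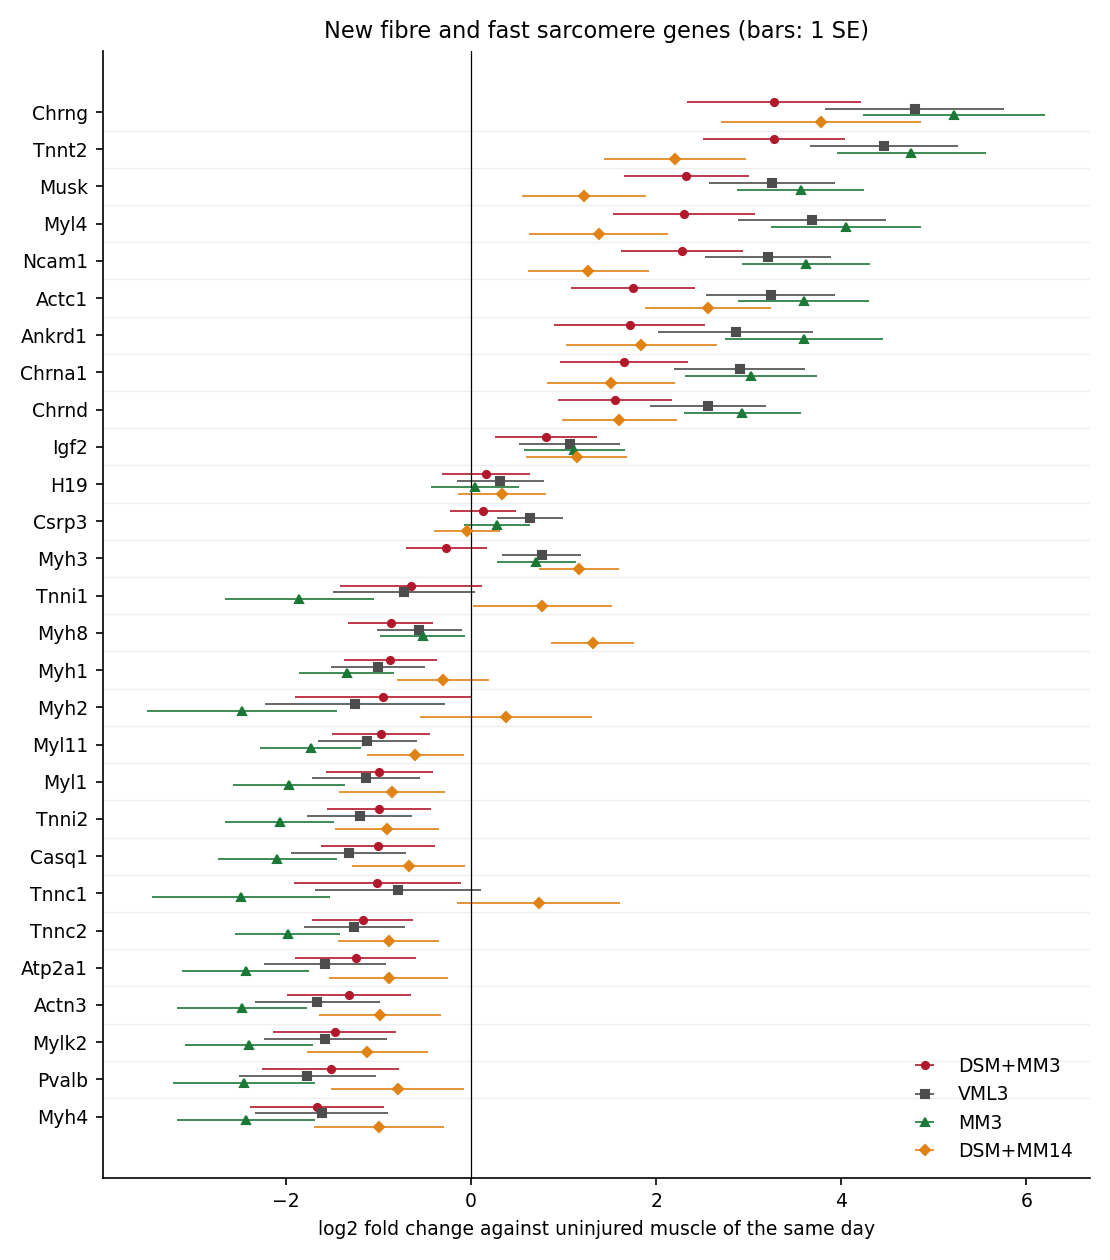
Log2 fold changes against uninjured muscle of the same day for genes of new fibres and of the fast sarcomere, with bars of 1 SE, in DSM+MM3, VML3, MM3 and DSM+MM14. Chrng and Tnnt2 lie above 0 in all 4 groups and Myh4 below, with MM3 the lowest of the day 3 values for Myh4 at -2.43.

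Mitochondrial genes also lay below 0 with few calls. Of 32 complex I genes 31 lay below 0, with a median of -0.94 and a median SE of 0.43, and 1 fell, Ndufa5 (-1.10, SE 0.39, adjusted p = 0.0435). Of 36 genes of complexes II to V 3 fell, Cycs (-1.35), Cox7c (-1.29) and Cox6c (-1.16), and Cox6a1, the form used outside muscle, rose (0.88, SE 0.21, 0.0029). The 3 falls of 36 are a share near the 8.00% of all transcripts. In the citric acid cycle 3 of 20 fell, Sucla2 (-1.39), Dld (-1.33) and Pdha1 (-1.20), and none of 23 fatty acid oxidation genes passed (median -0.76). These counts depend on the adjustment: over the 10851 transcripts alone 5 complex I genes fell, and with the median shift set to 0 none did, while 2 of complexes II to V and 1 of the citric acid cycle fell. In MM3 31 of the 32 complex I genes fell (median -1.68), where the difference from DSM+MM3 had a median of 0.80 and passed an unadjusted p under 0.05 for 0 of 32.

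In glycolysis and glycogen metabolism 6 of 27 genes rose, a share near the 23.9% of all transcripts, and 1 fell. Hexokinase Hk3 (6.40), Pfkp (2.62), Pgam1 (2.54), Pfkl (2.29), Hk1 (1.60) and Aldoc (1.10), forms used outside muscle fibres, rose, while Ugp2, which makes the glycogen precursor, fell (-1.24, SE 0.34, adjusted p = 0.0101) and the muscle forms Pfkm (-1.34, 0.11), Pgam2 (-1.02) and Eno3 (-1.20) did not pass. In the ribosome Rpl3 rose by 2.30 (SE 0.41, adjusted p = 0.000228) and its muscle counterpart Rpl3l stood at -0.85 (SE 0.57, 0.314), while 3 of 30 ribosomal genes rose in all and their median was 0.30. Of 17 genes induced by low oxygen 5 rose, beside 23.9% of all transcripts. They were led by the glucose transporter Slc2a1 (3.90) and Ndrg1 (3.53), and Ldha (-0.60) and Bnip3 (-0.84) did not pass. The median of the 17 was -0.49, and 11 lay below 0.

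Lysosomal genes rose in 21 of 24 cases (median 2.03), from the proton pump subunit Atp6v0d2 (6.63), found in osteoclasts and macrophages, to Ctsf (0.64). Iron handling rose in 8 of 14 cases, with Hmox1 (6.13), which breaks down heme, the transporter Slc11a1 (5.50), ferritin light chain Ftl1 (3.72) and the iron exporter Slc40a1 (2.41), while red blood cell genes did not pass (5 measured, median -0.01). Genes of endoplasmic reticulum and Atf4 stress went both ways: Asns (4.23), Psat1 (3.95) and Phgdh (3.02), which make asparagine and serine, rose, 12 of 21 rising in all, while Atf4 itself fell (-1.03, SE 0.31, adjusted p = 0.0188). In the proteasome the 3 immune subunits Psmb8 (2.99), Psmb9 (2.35) and Psmb10 (1.68) rose and 6 of 31 fell, among them Psmd12 (-0.73), a number that was 0 with the median shift removed.

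Clock and atrophy genes fell in part, beside 8.00% of all transcripts. In the circadian clock 4 of 14 fell, the repressors Nr1d2 (-1.49, SE 0.41, adjusted p = 0.00918) and Nr1d1 (-1.14) and the period genes Per1 (-1.09) and Per3 (-1.06), while Bmal1 stood at 0.37. With the median shift set to 0, Nr1d1, Per1 and, among the atrophy genes that follow, Fbxo31 were not called. Of 16 genes of atrophy and FoxO signalling 4 fell, Mstn, Klf15 (-1.26), Foxo4 (-1.25) and Fbxo31 (-0.83), the metallothionein Mt2A rose (2.49), and the ubiquitin ligases of atrophy Trim63 (-0.32) and Fbxo32 (-0.58) did not pass. Immediate early genes were near 0 (18 measured, median -0.01), with Fosl1 (2.94) and Myc (1.97) up and Arc (-1.38) down. In VML3 8 and in MM3 9 of these 18 fell, and Atf3, at 0.20 here, stood 2.12 above VML3 (SE 0.60, unadjusted p = 0.00167) but did not pass after adjustment.

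Nerve-related genes were mixed, and over all transcripts 23.9% rose and 8.00% fell. Of 13 Schwann cell and myelin genes 6 rose, with Mbp at 4.62 (SE 0.75, adjusted p = 0.000122), Erbb3 at 4.35 and Gap43 at 3.29, but the defining Schwann cell genes Sox10 (-0.37, SE 0.70) and S100b (-0.03) did not pass. Of 11 neurotrophic genes 4 rose, among them Lif (4.13), Artn (1.98) and the receptor Ngfr (1.87), and Cntf fell (-0.99), which was not called with the median shift set to 0. Of 26 axon guidance genes 8 rose, beside 23.9% of all transcripts. They were led by Sema4a (4.15), Ephb2 (3.41) and Slit2 (2.80), with Reln at 1.15 (SE 0.41, adjusted p = 0.0447), and Robo1 (1.62, SE 0.72, 0.108) did not pass. At the neuromuscular junction 2 of 14 rose, Chrng and Musk, while Chrne, the adult receptor subunit, stood at -0.71 and Ache at -0.91.

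Markers of other tissues the punch could hold were few. No keratinocyte gene of 14 reached the floor. Of 12 tendon and cartilage genes Prg4, a lubricant, rose (2.21, SE 0.41) and the tendon genes Tnmd (0.79, SE 1.30) and Scx (-0.09) did not pass. In DSM+MM14 8 of these 12 rose, with Tnmd at 6.05 and Comp at 6.49 against 2.13 at day 3 (difference -4.36, SE 1.60, unadjusted p = 0.0114, adjusted p = 0.596). Of 12 adipocyte genes 3 rose, Cfd (3.14), Scd (2.90) and Fasn (2.34), a share near the 23.9% of all transcripts, and the defining Adipoq (0.28) and Plin1 (0.02) stood near 0.

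**Figure D5:**
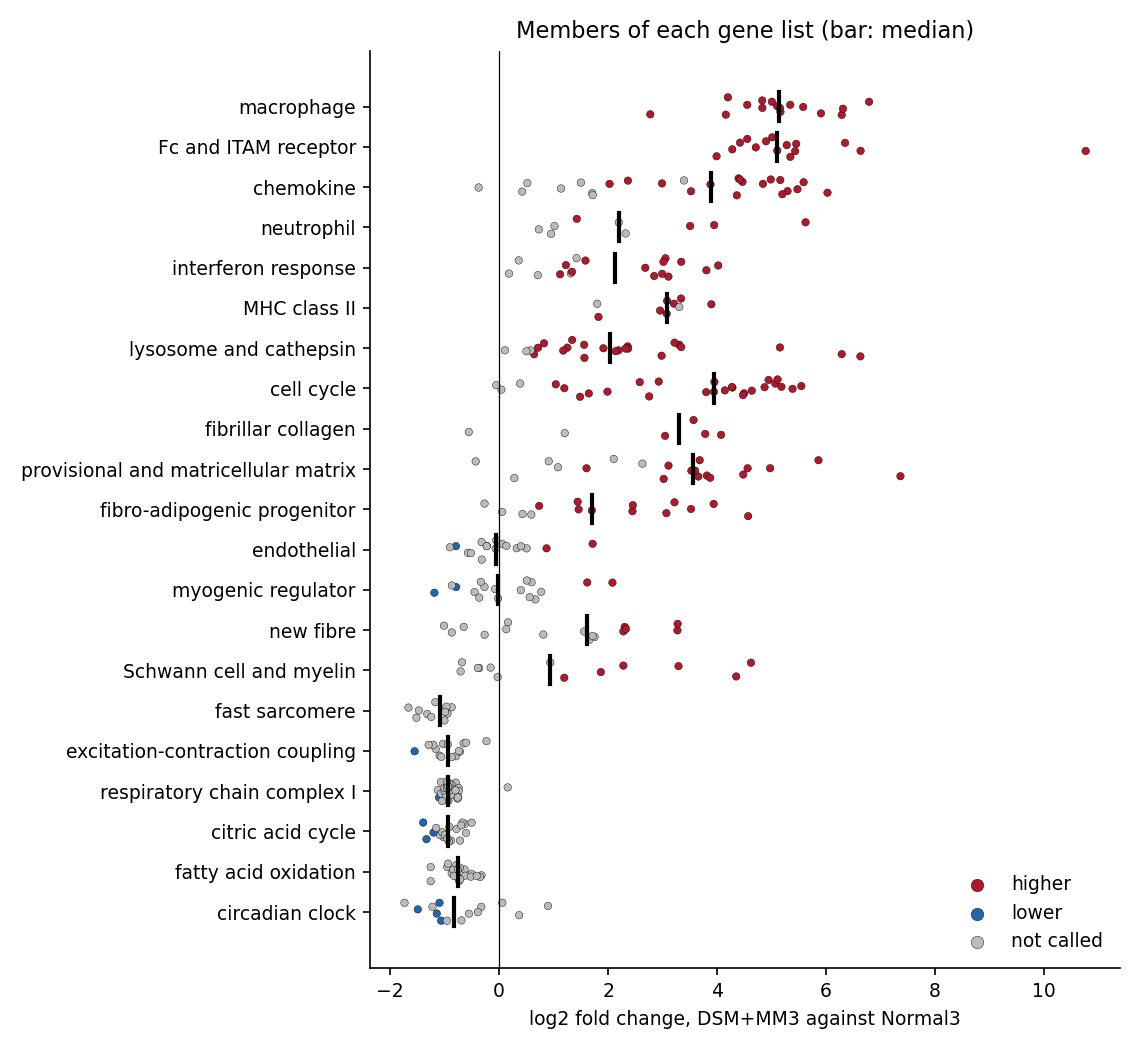
Each row is a gene list, each point a measured member at its log2 fold change in DSM+MM3 against Normal3 (small vertical offsets only separate points), coloured by its call, and the bar is the median. Macrophage genes have a median of 5.13 and no member below 2.77, endothelial genes straddle 0, and genes of complex I have a median of -0.94 with 1 member above 0.

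The difference of log2 fold changes was tested with an SE derived from the F statistics, without comparing the libraries directly. No transcript differed between DSM+MM3 and VML3, MM3 or DSM+MM14 at an adjusted p under 0.05 (0% of 10851 in each). At an unadjusted p under 0.05 there were 259 (2.39%), 479 (4.41%) and 661 (6.09%), and the smallest adjusted p were 0.687, 0.692 and 0.314. The shares against VML3 and MM3 lie below the level that this threshold gives without any difference. The test may thus be conservative, and the absence of calls does not show that the groups are equal. The median SE of a difference was 0.31 against VML3 and MM3 and 0.42 against DSM+MM14. Among the lowest p were, against MM3, Akip1 (-1.34, SE 0.29), Srgn (1.06, SE 0.26), a proteoglycan of immune granules, and G0s2 (3.08, SE 0.76), an inhibitor of fat breakdown, and, against DSM+MM14, Zfat (1.27, SE 0.27), Hr (-2.38, SE 0.53) and Cav1 (-1.68, SE 0.39). Fibrillar collagens had a median of 3.31 here and 4.55 in DSM+MM14, where 6 of 6 rose, and 2 of 6, Col11a1 (difference -4.88, SE 1.54) and Col11a2 (-3.35, SE 1.06), reached an unadjusted p under 0.05.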

How the data were processed

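STAR alignment to Rnor_6.0, featureCounts summaries by RefSeq transcript, TMM scaling and edgeR tests were done by the authors, with versions not given in the sources used here and strandedness not stated. The deposited log2 values are log2 fold changes and average log2 CPM, the deposited score values are F statistics, and the deposited p-values and FDR come from the authors' quasi-likelihood test, the FDR being the Benjamini-Hochberg adjustment over all 18281 rows. The table gives no value of a single library, and depth is unknown.

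Of 8 comparisons 4 were used, 2 of other groups were not used and 2 whose header names no group and day were left out. Symbols were matched for 17359 rows with RefSeq annotation of GRCr8, and a list counts 1 row a gene, that with the highest average. SE is the log2 fold change over the square root of F, with up to 26.4 degrees of freedom. For differences within day 3 the share of variance of Normal3 (0.429) was removed, and p-values were adjusted over the 10851 rows. The alternatives are given in the closing section. The test was also run on simulated data with normal errors of equal variance in all groups. Real counts need not have such errors, so that check does not show how the test behaves on these data. Named genes were the 15 largest rises and falls averaging at least 2 log2 CPM, the leading members of each list and its defining markers. The comparison and the 58 lists were chosen with earlier results of these data known, and some other genes are named that were chosen after their values were seen. Some single genes counted in the lists are not reported here. Muscle mass, force and histology were not analysed here. Computation used pandas 2.3.3, scipy 1.17.1, numpy 2.4.6 and matplotlib 3.10.9 under Python 3.11.15.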

Additional observations from a re-analysis of the deposited data

How the results depend on the processing

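Rises kept within 1.5 times of 2595 under every alternative run but a floor of 3.3, which gave 1531. Falls were less stable: 868 became 53 at an absolute log2 fold change over 1.5, 190 at an adjusted p under 0.01 and 339 with the median of transcripts averaging at least 3.3 set to 0, a shift of -0.16. Under a fold change of any size, floors of 1 and 3.3, no floor, adjustment over the transcripts at the floor and 1 row a gene, falls ran from 766 to 1195. The 0 calls of the difference tests stayed 0 with 3 uninjured libraries a day, the larger SE and a floor of 3.3. Of 1365 genes of the lists and largest changes, none turned direction while called, 161 lost a call at an absolute log2 fold change over 1.5 and 164 at an adjusted p under 0.01, 60 lost and 36 gained a call on recentring, and 68 gained one with adjustment over the floor. The cause was not tested. No paired analysis was possible because the table holds no single libraries, so a replicate block and leaving out each replicate were not run.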

Other observations

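Families taken by symbol, chosen after the values were seen, gave further values of DSM+MM3 against Normal3. All 9 measured genes of the Arp2/3 actin-branching complex were called, 8 higher and 1 lower (median log2 fold change 1.31), and the lower call was lost with the median of abundant transcripts set to 0. C-type lectin receptors rose in 12 of 17 cases (median 4.28), Siglec, Slam and Cd300 receptors in 10 of 12 (5.65), caspases in 6 of 8 (1.42), TNF receptors in 7 of 11 (1.74) and septins in 6 of 9 (1.09).

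On the lower side, 61 of 62 mitochondrial ribosome genes lay below 0 (median -0.63) and 10 fell, and 6 of 18 mitochondrial import genes fell (-0.67). With the median of abundant transcripts set to 0, 2 and 1 of these fell. Among 144 Zfp zinc finger genes 21 fell and 6 rose (median -0.38), against 8.00% and 23.9% of all transcripts, and 11 fell and 10 rose after recentring. Translation initiation factors fell in 9 of 49 cases and rose in 3 (median -0.20), and 2 fell after recentring.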
